A study of Homo sapiens with 16 samples.

Results

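The difference between the MS78 responses of 2 lung carcinoma lines, called the interaction here, was examined gene by gene over all 16 libraries of the study. NCI-H1299, from a human non-small cell lung cancer, is p53-null, and its partner line is NCI-H1299 stably expressing the mutant p53 Y220C. MS78 was designed to recruit p300 and CBP, which acetylate histones and other proteins, to p53 Y220C. Null DMSO is the p53-null line with the vehicle, Null MS78 the same line with 10 µM MS78, and Y220C DMSO and Y220C MS78 are the mutant-bearing line with the same additions. Treatment lasted 24 h in all groups, and 4 libraries per group were made from poly(A) RNA. Only the Y220C line was kept in G418, so the mutant, its integration and selection, and G418 cannot be told apart in any difference between the lines. The labels do not tell whether the 4 libraries of a group are separate cultures, and p-values then measure no more than the spread between these samples, perhaps technical. For each gene the log2 fold change of MS78 against DMSO in p53-null cells was subtracted from that in Y220C cells, and 4197 of 15687 genes tested passed an adjusted p of 0.05 for this difference. Among them, 336 genes went in opposite directions in the 2 lines, 50 changed in Y220C cells only and 2 in p53-null cells only.

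As background, p53 is a transcription factor that acts on genes of cell cycle arrest, DNA repair and cell death, and Y220C is a substitution in its DNA-binding domain that makes the protein fold unstably. Several stress pathways that also act through transcription meet in the genes described here. Heat shock factor raises cytosolic chaperones when proteins misfold, the unfolded protein response raises chaperones of the endoplasmic reticulum (ER), and the integrated stress response raises genes of amino acid supply through ATF4 and, later, DDIT3 (CHOP). Immediate early genes such as FOS and JUN encode the AP-1 factors and rise within a short time of many stimuli.

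Total reads lay between 20.3 M and 27.7 M per library, and levels are given as CPM, reads scaled to library size. Leukocyte transcripts were present in 8 libraries (DMSO replicate 1 and MS78 replicates 2, 3 and 4, in each line), where PTPRC (CD45) had 55 to 99 reads against 0 or 1 in the other 8. The summed level of 19 leukocyte markers was 125 to 219 CPM in the former and 62.7 to 100 CPM in the latter. CD68, at 58.6 to 98.4 CPM over all libraries, made up most of the latter, and without it the other 18 markers summed to 62.1 to 121 CPM and 2.44 to 11.1 CPM. Both lines held these libraries in the same arrangement, and the median interaction of the 14 leukocyte markers tested was -0.10 on the log2 scale. Values within each set of 8 and with a term for them are given at the end. Of 8 epithelial markers, the keratins KRT8 (165 to 352 CPM) and KRT18 (287 to 504 CPM) stood high in all libraries. The others were low, at no more than 2.01 (CDH1), 1.67 (EPCAM), 2.82 (KRT7), 2.63 (KRT19), 2.5 (ESRP1) and 5.21 CPM (CLDN4). Lung lineage markers stood low as well, with NKX2-1 at no more than 7 reads and SFTPA1 at 0 to 90. SCGB1A1 was at 0 in all 16 and SFTPC at 0 in 15. Neural markers were mixed, from TUBB3 at 298 to 547 CPM to ELAVL4 at 0 in all 16. In such bulk samples, fewer cells of a kind and less RNA per cell cannot be told apart.

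The interaction was called for 26.8% of the genes tested, 2256 of them (14.4%) with the higher response in Y220C cells and 1941 (12.4%) with the lower. With upper-quartile size factors the split turned to 1677 higher and 2805 lower, a higher share of 37.4% in place of 53.8%, while the median interaction of all genes moved from -0.02 to -0.08. At an unadjusted p of 0.05, 5881 genes passed. Most differences were small, with a median size of 0.37 on the log2 scale, and 288 genes differed at least 2-fold, 146 upward and 142 downward. MS78 by itself raised 14.8% and lowered 13.3% of genes in p53-null cells, and raised 24.9% and lowered 23.6% in Y220C cells. Of the 4197 genes, 336 were called in both lines with opposite signs and 895 with the same sign, 774 of these with the larger change in Y220C cells and 121 with the larger change in p53-null cells. Another 2291 were called in Y220C cells and not in p53-null cells, 544 the other way round, and 131 in neither line. Across the 15687 genes the 2 responses had a Pearson r of 0.50, which is a description across genes that share libraries.

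**Figure D1:**
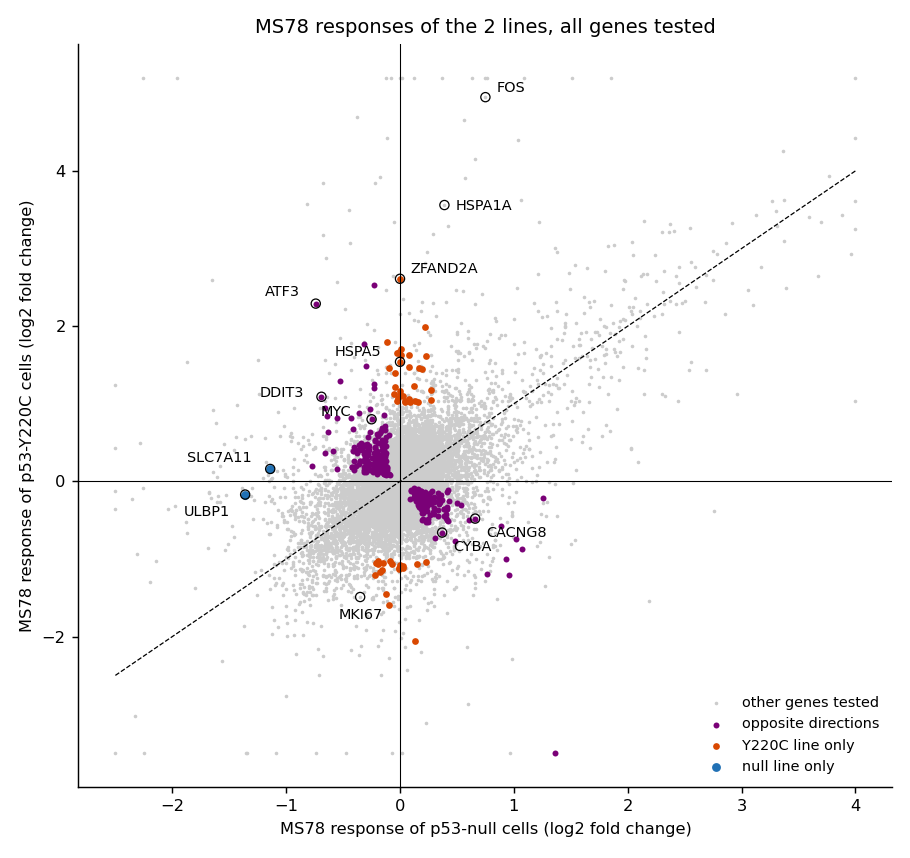
Log2 fold change of MS78 against DMSO in p53-null cells (x axis) and in Y220C cells (y axis), 1 point per gene tested, with values beyond the axis limits drawn at the edge. Genes on the dashed line would respond alike, ATF3 and DDIT3 lie at upper left (fell in p53-null cells, rose in Y220C cells), CACNG8 and CYBA at lower right, ZFAND2A and HSPA5 on the vertical line at 0, and FOS and HSPA1A far above the dashed line.

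Genes that fell in p53-null cells and rose in Y220C cells were led by rank by ATF3 and DDIT3. There were 199 of them, 1.27% of the genes tested, against 137 (0.873%) that rose in p53-null and fell in Y220C cells, so that opposite responses made up 2.14% in all. They were mostly small, with a median size of 0.21 in p53-null and 0.26 in Y220C cells on the log2 scale, and 14 genes reached 0.5 in both lines. Genes named by rank from these 336 are limited to those whose DMSO and MS78 libraries did not overlap in either line.

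ATF3 (ENSG00000162772, GRCh38 chromosome 1, 212565334 to 212620777, plus strand) encodes a bZIP factor that is induced by many stresses and by ATF4. Its level in p53-null cells was 8.84, 11.3, 8.45 and 9.26 CPM with DMSO and 5.95, 5.22, 6.3 and 5.09 CPM with MS78. In Y220C cells it was 10, 7.58, 9.58 and 9.33 CPM with DMSO and 46.9, 44.5, 46.6 and 41.5 CPM with MS78. All 4 treated p53-null libraries thus lay below their controls and all 4 treated Y220C libraries far above theirs, while the DMSO groups of the 2 lines overlapped. The log2 fold change was -0.74 (SE 0.10, adjusted p = 1.07e-05) in p53-null and 2.29 (SE 0.09, adjusted p = 1.12e-14) in Y220C cells, an interaction of 3.04 (SE 0.13, adjusted p = 1.19e-12).

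DDIT3, the pro-apoptotic factor CHOP (ENSG00000175197, chromosome 12, 57516588 to 57521737, minus strand), moved in the same way from unequal starting levels. With DMSO it stood at 47.6, 53.6, 41.3 and 42.8 CPM in p53-null and at 77.5, 81.5, 73.2 and 70.9 CPM in Y220C cells. With MS78 the values were 27.8, 27.2, 31.1 and 29.1 CPM in p53-null and 157, 153, 163 and 173 CPM in Y220C cells. DMSO and MS78 libraries did not overlap in either line, nor did the lines under either treatment, and the interaction was 1.78 (SE 0.10, adjusted p = 4.98e-11), from -0.69 (SE 0.07) and 1.09 (SE 0.07). Exons of DDIT3 overlap those of MARS and MBD6 on the other strand, and neither labels nor file headers state whether counting used strand.

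IFRD1, a transcriptional co-regulator (ENSG00000006652, chromosome 7, 112422968 to 112481017, plus strand), moved in the same direction. It went from 42.7, 42.7, 40 and 41.7 CPM to 28.5, 25.1, 27.3 and 26.1 CPM in p53-null cells. Y220C libraries rose from 46.2, 44.8, 47.1 and 44.4 CPM to 81.6, 79.5, 84.1 and 81.5 CPM. The DMSO levels of the lines differed a little without overlap (log2 difference 0.13), and MS78 moved the lines apart, with an interaction of 1.48 (SE 0.06, adjusted p = 2.74e-13). Exons of IFRD1 overlap those of LSMEM1 on the same strand, so reads may be divided between them.

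AEN encodes a nuclease that p53 induces in apoptosis (ENSG00000181026, chromosome 15, 88621296 to 88632282, plus strand), and here the order of the lines turned over. With DMSO it was higher in p53-null cells, at 19.3, 19.3, 18.4 and 20.5 CPM, than in Y220C cells, at 11.7, 11.2, 12.7 and 10 CPM. With MS78 it was lower in p53-null cells, at 15.4, 12.8, 14.2 and 15.2 CPM, than in Y220C cells, at 20.6, 21.5, 18.8 and 19 CPM. The lines did not overlap under either condition, and the interaction was 1.24 (SE 0.11, adjusted p = 3.64e-08). The other 4 genes taken by rank in this direction were FAM24B (interaction 1.60, SE 0.17), KBTBD8, a substrate adaptor of a CUL3 ubiquitin ligase (1.82, SE 0.23), LURAP1L (1.09, SE 0.18) and TAF4B, a TFIID subunit (0.80, SE 0.14). None of these 4 exceeded a mean of 18.4 CPM in any group, and the interval of LURAP1L in p53-null cells, -0.69 to -0.12, came close to 0. Exons of FAM24B overlap those of CUZD1 on the same strand, so the division of its reads is uncertain.

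**Figure D2:**
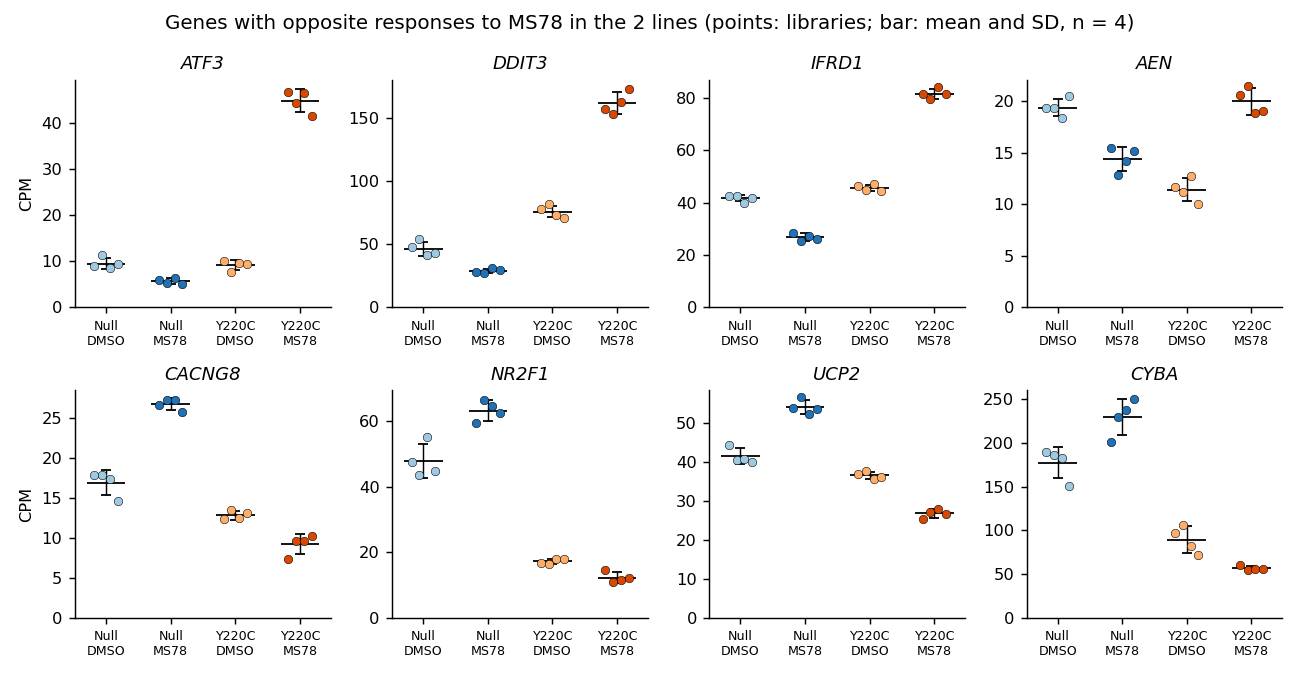
CPM of 8 genes with opposite responses, 1 point per library and 4 libraries per group, with the mean and SD as bars and each axis starting at 0. ATF3, DDIT3, IFRD1 and AEN fell in p53-null and rose in Y220C cells, and CACNG8, NR2F1, UCP2 and CYBA did the reverse.

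Genes that rose in p53-null and fell in Y220C cells numbered 137. CACNG8, an auxiliary subunit of AMPA-type glutamate receptors (ENSG00000142408, chromosome 19, 53963040 to 53990215, plus strand), led by rank. Its level in p53-null cells was 17.8, 17.8, 17.3 and 14.6 CPM with DMSO and 26.6, 27.2, 27.2 and 25.7 CPM with MS78. In Y220C cells it was 12.3, 13.4, 12.4 and 13.1 CPM with DMSO and 7.32, 9.59, 9.54 and 10.2 CPM with MS78. The groups did not overlap in either line, and the interaction was -1.14 (SE 0.12, adjusted p = 3.7e-07).

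NR2F1, the orphan nuclear receptor COUP-TF1 (ENSG00000175745, chromosome 5, 93583224 to 93594615, plus strand), differed between the lines before treatment. It stood at 47.6, 43.5, 55.1 and 44.7 CPM in Null DMSO against 16.6, 16.5, 17.8 and 18 CPM in Y220C DMSO. MS78 brought it to 59.3, 66.5, 64.6 and 62.3 CPM in p53-null and to 14.5, 10.8, 11.4 and 12.1 CPM in Y220C cells. The gap between the lines therefore widened in both directions, from a log2 difference of -1.47 to one of -2.37, with an interaction of -0.90 (SE 0.11, adjusted p = 6.6e-06).

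CYBA encodes p22phox, the membrane subunit of NADPH oxidases (ENSG00000051523, chromosome 16, 88643283 to 88651152, minus strand). Its level went from 189, 186, 183 and 151 CPM to 201, 229, 237 and 250 CPM in p53-null cells, and its mean fell from 89.4 ± 15.3 to 56.4 ± 2.68 CPM (SD, n = 4) in Y220C cells, with an interaction of -1.04 (SE 0.13, adjusted p = 8.61e-06). The library Null DMSO 4, at 151 CPM, lay apart from the other 3 of its group, which stood between 183 and 189 CPM. UCP2, a mitochondrial carrier, went from 41.5 ± 2.05 to 54.2 ± 1.92 CPM and from 36.6 ± 0.928 to 26.8 ± 1.06 CPM (interaction -0.84, SE 0.06, adjusted p = 7.79e-09). INSYN2, an inhibitory synapse factor, LRRC24 and ISG20, an interferon-induced exonuclease, had levels below 8 CPM in every library and interactions of -1.24 (SE 0.22), -0.83 (SE 0.16) and -0.87 (SE 0.19). Exons of LRRC24 overlap those of C8orf82 on the same strand, so the division of its reads is uncertain.

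Genes that changed in Y220C cells only included ZFAND2A, IFIT2, SNAPC1 and NOCT as the first by rank among those that rose, and 5 members of the heat shock list and HSPA5 of the ER list. The class asks for a call and a 2-fold change in Y220C cells, a call for the interaction, and a p53-null response that was not called and whose 95% interval lay within 0.5 of 0 on the log2 scale. It held 31 genes that rose (0.198% of the genes tested) and 19 that fell (0.121%). A further 114 genes with an interaction and a 2-fold change in Y220C cells were not called in p53-null cells either, but had intervals there that reached beyond 0.5, so a response in p53-null cells is not bounded for them. At the edge of the 2-fold rule, HLA-F and HSPA1L (1.02 each on the log2 scale) lay just inside, and BIRC3 and ZBTB21 (1.0 each after rounding) just outside.

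Of these genes, 24 that rose matched a promoter in RefSeq (GRCh38.p14; 250 bases before to 50 after the start site). The promoters of CHORDC1 and ZFAND2A are shown because they hold the letters of paired heat shock units, in capitals here (GAANNTTC and TTCNNGAA, overlapping matches joined). Binding of heat shock factor to these letters was not tested. HSPA5 is shown because it holds the letters of the ER stress response element (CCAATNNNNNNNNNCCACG, in capitals). All 3 lie on the minus strand, at chr11:90223000-90223299, chr7:1160147-1160446 and chr9:125241294-125241593, and are written 5′ to 3′ on that strand.
CHORDC1: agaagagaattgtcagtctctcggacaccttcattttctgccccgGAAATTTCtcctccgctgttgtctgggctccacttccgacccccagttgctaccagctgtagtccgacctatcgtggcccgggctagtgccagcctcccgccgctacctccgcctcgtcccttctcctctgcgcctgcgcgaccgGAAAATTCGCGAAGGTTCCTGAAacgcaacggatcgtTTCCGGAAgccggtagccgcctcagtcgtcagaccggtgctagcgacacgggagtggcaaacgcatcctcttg
ZFAND2A: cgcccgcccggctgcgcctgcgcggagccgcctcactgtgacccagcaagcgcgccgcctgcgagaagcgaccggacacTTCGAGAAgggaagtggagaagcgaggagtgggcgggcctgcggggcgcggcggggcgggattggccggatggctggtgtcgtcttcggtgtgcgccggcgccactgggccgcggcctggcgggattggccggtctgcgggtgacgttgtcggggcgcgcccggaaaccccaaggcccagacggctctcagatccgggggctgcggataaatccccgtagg
HSPA5: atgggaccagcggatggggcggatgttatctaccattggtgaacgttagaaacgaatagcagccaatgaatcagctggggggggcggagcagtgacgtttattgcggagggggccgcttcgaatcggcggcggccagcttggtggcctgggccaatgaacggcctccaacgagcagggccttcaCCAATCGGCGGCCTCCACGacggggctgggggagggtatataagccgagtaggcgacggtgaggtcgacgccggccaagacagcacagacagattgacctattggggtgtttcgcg

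ZFAND2A (AIRAP), a zinc finger protein that works with the proteasome under proteotoxic stress (ENSG00000178381, chromosome 7, 1152071 to 1160759, minus strand), ranked first in the class among protein-coding genes. In p53-null cells it stood at 5.23, 6.51, 5.17 and 4.75 CPM with DMSO and at 4.82, 5.54, 5.18 and 6.11 CPM with MS78. Y220C libraries rose from 9.04, 8.21, 9.16 and 7.29 CPM to 50.8, 45.1, 54.1 and 56.6 CPM. The p53-null groups overlapped throughout (95% interval -0.25 to 0.24), while the Y220C groups stood 6.13-fold apart (log2 2.61, SE 0.09, adjusted p = 2.22e-15, interaction 2.62, SE 0.15, adjusted p = 6.85e-11).

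CHORDC1 (morgana), an HSP90-binding chaperone (ENSG00000110172, chromosome 11, 90201160 to 90223364, minus strand), showed the same form at a higher level. It was at 43.5, 44.8, 45.2 and 45.9 CPM in Null DMSO and at 47.1, 45.6, 44.9 and 40 CPM in Null MS78. Y220C libraries held 51.3, 51.1, 53.7 and 57.8 CPM with DMSO and 174, 170, 169 and 168 CPM with MS78. The response of p53-null cells was bounded between -0.11 and 0.09, and the interaction was 1.68 (SE 0.07, adjusted p = 2.3e-13).

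HSPA5 encodes BiP, the main HSP70 chaperone of the ER (ENSG00000044574, chromosome 9, 125234853 to 125241330, minus strand). Its level was 910, 929, 950 and 934 CPM in Null DMSO, 929, 894, 941 and 954 CPM in Null MS78 and 972, 933, 968 and 952 CPM in Y220C DMSO. With MS78, Y220C libraries held 2794, 2735, 2842 and 2743 CPM. The first 3 groups overlapped, and the last stood 2.91-fold above its control (interaction 1.54, SE 0.04, adjusted p = 9.92e-17), with a p53-null response between -0.06 and 0.06. HSPH1, the HSP110 nucleotide exchange factor, went from 237 ± 4.07 to 748 ± 22 CPM in Y220C cells and stood at 174 ± 6.31 and 170 ± 3.78 CPM in p53-null cells (interaction 1.69, SE 0.05, adjusted p = 5.59e-16).

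PPP1R15A, the stress-induced phosphatase subunit GADD34 that reverses the integrated stress response, was at 29.2, 28.1, 27 and 27.2 CPM in Null DMSO and at 27.2, 30.7, 30.7 and 29.5 CPM in Null MS78. In Y220C cells it went from 52.5, 51.1, 50.4 and 47.4 CPM to 161, 149, 151 and 164 CPM. It was higher in the Y220C line already with DMSO (log2 difference 0.86, adjusted p = 2.56e-11), and the interaction added 1.55 (SE 0.07, adjusted p = 1.64e-12). SNAPC1, a subunit of the complex that activates small nuclear RNA genes, rose 3.46-fold in Y220C cells (interaction 1.90, SE 0.07). In p53-null cells its treated libraries, at 22.9 to 24.9 CPM, all lay below the controls, at 25.4 to 26.5 CPM, although this difference was not called (log2 -0.11, adjusted p = 0.12).

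IFIT2, an interferon-induced RNA-binding protein, was the second gene by rank. Its values were 4.25, 4.53, 4.7 and 5.61 CPM in Null DMSO and 6.34, 5, 5.68 and 5.33 CPM in Null MS78. In Y220C cells they were 7.16, 7.77, 8.22 and 7.78 CPM with DMSO and 30.3, 29.6, 30.3 and 32.2 CPM with MS78. The interaction was 1.76 (SE 0.12, adjusted p = 2.34e-09), and the p53-null response was bounded only between 0.03 and 0.42. NOCT, a circadian phosphatase, rose 3.24-fold in Y220C cells (interaction 1.68, SE 0.19) and PGF, a growth factor of the VEGF family, 3.1-fold (1.62, SE 0.15), both from under 7 CPM.

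**Figure D3:**
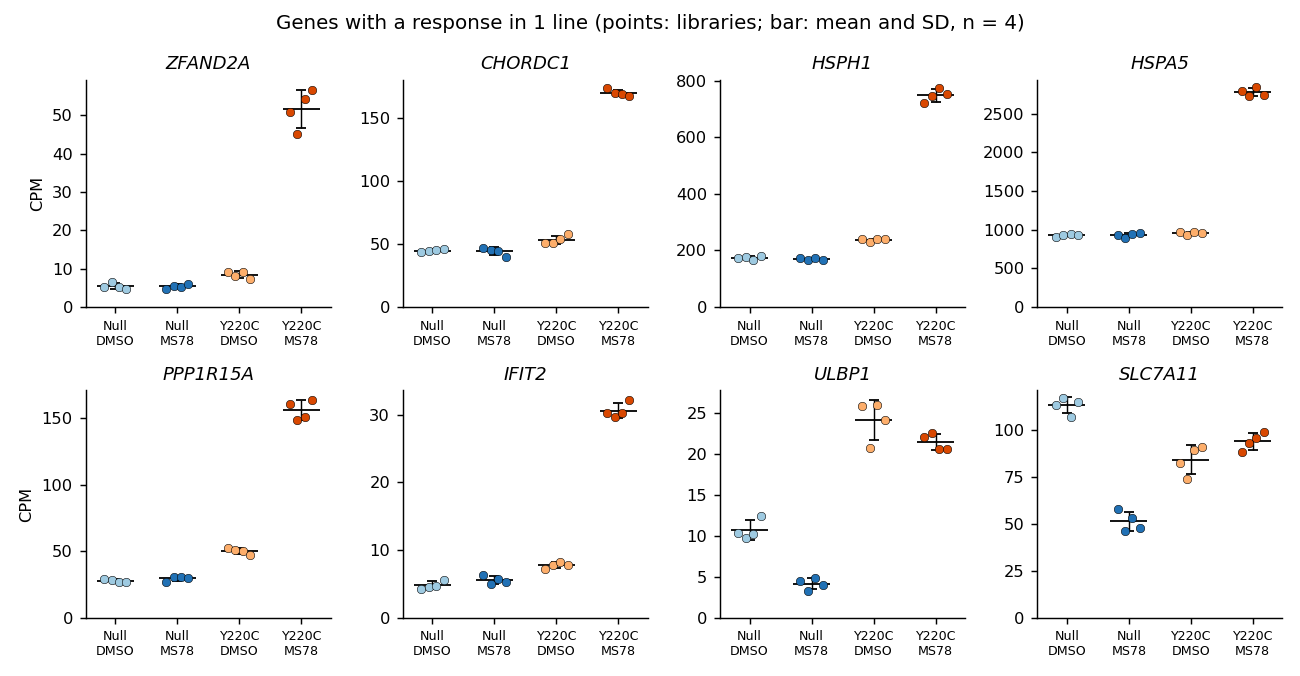
CPM of 6 genes that changed in Y220C cells only and of ULBP1 and SLC7A11, which changed in p53-null cells only, with 1 point per library, bars for mean and SD over 4 libraries, and axes from 0. In the first 6 panels the Y220C MS78 libraries stand alone above the other 3 groups, and in the last 2 panels the Null MS78 libraries stand below Null DMSO while the Y220C groups lie close together.

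The 19 genes that fell in Y220C cells only had low levels. C1QTNF12, an adipokine, led by rank, but it had 6 to 18 reads per library in Y220C DMSO and 0 to 5 in Y220C MS78, against 135 to 165 and 120 to 179 in the p53-null groups. Its fitted interaction was -1.49 (SE 0.47, adjusted p = 0.0241), and on the scale of CPM differences the sign turned to 0.0863, so its direction depends on the scale. TESMIN, a metallothionein-like testis protein, fell from 9.47 ± 0.278 to 4.09 ± 0.131 CPM (SD, n = 4; interaction -0.99, SE 0.16, adjusted p = 0.000113). B3GNTL1 and YY2, a relative of the transcription factor YY1, fell to 2.81 ± 0.366 and 2.22 ± 0.263 CPM, with interactions of -0.99 (SE 0.19) and -0.98 (SE 0.20). Exons of B3GNTL1 overlap TBCD and those of YY2 overlap MBTPS2, so reads of the pairs may be divided between them.

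A change in p53-null cells only was rare, with 2 genes in the class (0.0127% of the genes tested). Both fell, and with unadjusted p-values in place of adjusted ones the rule held 1 gene. ULBP1, a stress-induced ligand of the NK cell receptor NKG2D (ENSG00000111981, chromosome 6, 149964007 to 149973710, plus strand), went from 10.4, 9.7, 10.3 and 12.5 CPM to 4.55, 3.31, 4.85 and 4.02 CPM in p53-null cells. In Y220C cells it was at 25.9, 20.8, 26 and 24.2 CPM with DMSO and at 22.1, 22.6, 20.7 and 20.6 CPM with MS78. The p53-null groups stood 2.57-fold apart and the Y220C groups overlapped (95% interval -0.36 to 0.01), giving an interaction of 1.19 (SE 0.14, adjusted p = 3.53e-06).

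SLC7A11, the cystine transporter that supplies glutathione synthesis and a target of ATF4 and NRF2 (ENSG00000151012, chromosome 4, 138164097 to 138242349, minus strand), was the other. Its level fell from 113, 117, 107 and 115 CPM to 57.7, 46.3, 53.2 and 47.6 CPM in p53-null cells. With DMSO and MS78, Y220C cells held 82.4, 73.8, 89 and 90.7 CPM and 88.2, 92.7, 95.7 and 98.7 CPM. The interaction was 1.30 (SE 0.09, adjusted p = 2.98e-09). Its Y220C response, 0.16 (95% interval 0.02 to 0.30, adjusted p = 0.0526), lay at the threshold and was called by DESeq2 (adjusted p = 0.0323), which would place it among the opposite responses. Of the 65 genes with an interaction and a 2-fold change in p53-null cells, 46 changed in the same direction in Y220C cells, 4 in the opposite direction and 15 were not called there.

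Genes called in both lines with the same sign and a different size were led by EGR4, FOS, FOSB and HSPA1A. FOS, an AP-1 subunit, was at 5.75, 4.87, 4.74 and 4.94 CPM in Null DMSO and 9.41, 8.17, 6.92 and 9.79 CPM in Null MS78. Y220C libraries rose from 5.48, 4.88, 5.63 and 5.11 CPM to 168, 173, 156 and 156 CPM. It therefore rose 1.68-fold in one line and 30.9-fold in the other from overlapping DMSO levels (interaction 4.20, SE 0.14, adjusted p = 9.29e-15). FOSB, its paralog, rose 1.47-fold and 25.3-fold (interaction 4.10, SE 0.22, adjusted p = 3.1e-11).

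HSPA1A, the stress-inducible cytosolic HSP70, was at 301, 291, 305 and 296 CPM in Null DMSO and at 368, 398, 391 and 409 CPM in Null MS78. Y220C libraries held 361, 372, 376 and 339 CPM with DMSO and 4252, 4295, 4148 and 4347 CPM with MS78. The interaction was 3.17 (SE 0.05, adjusted p = 9.87e-20), and since HSPA1A has a near-identical copy, HSPA1B, the division of reads between them is uncertain. EGR4, an early growth response factor, had 4 to 7 and 8 to 20 reads per library in the p53-null groups, 0 to 3 in Y220C DMSO and 83 to 113 in Y220C MS78. Its fitted interaction of 4.92 (SE 0.58, adjusted p = 3.15e-06) depends on the prior count.

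In the other direction, with the larger change in p53-null cells, the genes by rank were STC2, MEF2C, MMP1 and SLC6A9. STC2, a secreted stress glycoprotein, fell from 58 ± 4.42 to 28.2 ± 2.7 CPM in p53-null and from 50 ± 1.31 to 43.5 ± 1.14 CPM in Y220C cells (interaction 0.85, SE 0.08, adjusted p = 3.12e-07). MEF2C, a MADS-box transcription factor, rose 2.15-fold and 1.25-fold (interaction -0.79, SE 0.06, adjusted p = 1.93e-08). MMP1, interstitial collagenase, rose 3.56-fold from 6.81 ± 0.352 CPM and 2.17-fold from 1.8 ± 0.427 CPM (interaction -0.72, SE 0.17, adjusted p = 0.00303). SLC6A9, the glycine transporter GLYT1, fell by 1.20 and by 0.48 on the log2 scale.

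Gene lists by pathway were counted for each line and for the interaction. The lists were chosen with earlier results of these data known, so the counts are descriptions and no test. Over all genes tested 14.4% were called higher and 12.4% lower, and in Y220C cells 24.9% rose and 23.6% fell. Of 32 heat shock and chaperone genes tested, 28 were called higher for the interaction and 1 lower (HSPA2, named after its value was seen). Their median log2 fold change was 0.08 in p53-null and 0.86 in Y220C cells, where 29 rose and 1 fell, against medians of 0.01 and -0.01 over all genes tested. HSPA6, an HSP70 that is nearly silent without stress, had 4 to 9 reads per library in the p53-null groups, with or without MS78, and went from 4.64 ± 0.895 to 479 ± 17.1 CPM in Y220C cells (interaction 6.06, SE 0.57, adjusted p = 1.51e-07). Its p53-null change is thus measured on a few reads (95% interval -0.22 to 1.47), it differed between the lines with DMSO, and reads shared with other HSP70 genes are uncertain. Of 24 ER chaperone and unfolded protein response genes, 17 were called higher, with medians of 0.07 and 0.50. HERPUD1, a factor of ER-associated degradation, fell from 60.2 ± 3.36 to 51.2 ± 2.72 CPM in p53-null and rose from 54.6 ± 1.67 to 131 ± 4.76 CPM in Y220C cells (interaction 1.5, SE 0.07, adjusted p = 1.19e-12).

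ATF4 targets and other genes of the integrated stress response separated the lines in another way. In p53-null cells 36 of 43 fell and 1 rose (median -0.56), beside 13.3% and 14.8% of all genes tested. In Y220C cells 20 fell and 13 rose (median -0.10), beside 23.6% and 24.9%. For the interaction 34 were called higher, beside 14.4% of all genes, and 1 lower, beside 12.4%. That 1 was DDIT4, named after its value was seen. Opposite directions were shown by 6 of the 43, beside 2.14% of all genes tested, namely ATF3, DDIT3, VEGFA, ATF4, GDF15 and SLC3A2. VEGFA, the angiogenic growth factor, went from 60.5 ± 2.89 to 48.2 ± 3.36 CPM and from 52.5 ± 2.92 to 70.1 ± 2.3 CPM (interaction 0.75, SE 0.07, adjusted p = 2.85e-07). 

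Immediate early genes rose in both lines, 18 of 29 in p53-null and 25 of 29 in Y220C cells, beside 14.8% and 24.9% of all genes tested. For the interaction 20 were called higher and 1 lower (DUSP6, named after its value was seen), beside 14.4% and 12.4%. Medians were 0.56 and 1.15. Opposite signs were shown by 3 of the 29, namely JUN, ATF3 and IER5, beside 2.14% of all genes tested. JUN, an AP-1 subunit, was chosen after its values were seen. Its level fell from 55.7, 52.9, 49.2 and 49.7 CPM to 44.1, 45.1, 42.8 and 44.9 CPM in p53-null cells. It rose from 50.9, 56, 55.2 and 51 CPM to 303, 321, 289 and 314 CPM in Y220C cells. The DMSO groups overlapped, and the interaction was 2.76 (SE 0.07, adjusted p = 4.7e-17).

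Among 62 p53 target genes tested, 20 were called higher for the interaction and 5 lower, beside 14.4% and 12.4% of all genes tested. Medians were -0.01 in p53-null and 0.17 in Y220C cells. Opposite signs were found for 6, beside 2.14% of all genes, namely AEN, GADD45A, PMAIP1, GDF15, PPM1D and TNFRSF10B. CDKN1A, which encodes the cell cycle inhibitor p21, and MDM2, the ubiquitin ligase that turns p53 over, are described as the best known of them and were chosen with earlier results in view. CDKN1A rose in both lines, from 48.6, 54.4, 49 and 50 CPM to 80.5, 84, 82.9 and 87 CPM and from 36.6, 38.2, 38.6 and 36.2 CPM to 129, 129, 115 and 127 CPM. Its lines changed places without overlap, Y220C cells being lower with DMSO and higher with MS78, and the interaction was 1.01 (SE 0.07, adjusted p = 7.07e-10). MDM2 was called in neither line, with means between 13.2 and 15.9 CPM and an interaction of 0.10 (95% interval -0.17 to 0.37, adjusted p = 0.622). GADD45A, a growth arrest and DNA damage gene, had an interaction of 1.23 (SE 0.07, adjusted p = 1.51e-10), going from 58.6 ± 3.17 to 45.7 ± 1.71 CPM and from 44.5 ± 3.56 to 81.6 ± 1.64 CPM.

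Of 17 genes of the BCL2 family 4 were called higher for the interaction and 3 lower, and of 23 genes of TRAIL and death receptor signalling 8 higher and 1 lower (TNFRSF25, named after its value was seen), beside 14.4% and 12.4% of all genes tested. PMAIP1 (NOXA), a BH3-only protein, fell from 33 ± 2.91 to 22 ± 1.52 CPM in p53-null and rose from 25.1 ± 2.66 to 32.8 ± 1.7 CPM in Y220C cells (interaction 0.98, SE 0.11, adjusted p = 9.55e-07). TNFRSF10B, the TRAIL receptor DR5, was at 69.7 ± 2.42 and 63.8 ± 2.06 CPM in p53-null and at 82.9 ± 4.51 and 105 ± 1.2 CPM in Y220C cells (interaction 0.47, SE 0.06, adjusted p = 5.63e-06). HRK, another BH3-only gene, stayed below 13 CPM in every library and had an interaction of 0.85 (SE 0.16, adjusted p = 0.000578), with p53-null groups that overlapped. BMF, a BH3-only gene as well, was called in p53-null cells and not in Y220C cells. It rose in p53-null cells from 15.6, 15, 16.5 and 16 CPM to 28.5, 28.3, 28.6 and 28.3 CPM, and stood at 15.7, 14.8, 16.7 and 13.9 CPM and at 13.5, 14.8, 14.8 and 16.9 CPM in Y220C cells (interaction -0.88, SE 0.09, adjusted p = 6.6e-07). Its change in p53-null cells, 1.8-fold, stayed under the 2-fold rule of the class.

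Of 40 genes of the MYC network and ribosome biogenesis, 16 were called higher and 8 lower, beside 14.4% and 12.4% of all genes tested. Opposite signs were shown by 9, all falling in p53-null and rising in Y220C cells, as 1.27% of all genes tested did. MYC itself was one of them, at 108, 104, 89.2 and 93.1 CPM and then 80.7, 85, 82.4 and 82.4 CPM in p53-null cells. In Y220C cells it went from 84.9, 92.7, 84.4 and 82.4 CPM to 148, 150, 150 and 151 CPM (interaction 1.05, SE 0.07, adjusted p = 1.4e-09). NME1, a nucleoside diphosphate kinase gene, moved against this, falling from 174 ± 13.6 to 140 ± 7.19 CPM and from 143 ± 18.8 to 53.1 ± 4.2 CPM (interaction -1.11, SE 0.11, adjusted p = 2.89e-07). Its reads can be shared with the read-through gene NME1-NME2.

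NF-kB and inflammatory genes were called higher for the interaction in 13 of 20 and lower in 2 (CXCL2 and TNFAIP2, named after their values were seen). The shares of all genes tested were 14.4% and 12.4%. Medians of this list were near 0 in p53-null and 0.65 in Y220C cells. TNFAIP3, the feedback inhibitor A20, was at 7.77 ± 0.693 and 7.56 ± 0.582 CPM in p53-null and went from 7.19 ± 1.01 to 18.9 ± 1.83 CPM in Y220C cells (interaction 1.43, SE 0.14, adjusted p = 3.01e-07). Of 26 interferon response genes 5 were called higher and 5 lower, not far from those shares. IFIT1, which is related to IFIT2, had an interaction of 1.29 (SE 0.13, adjusted p = 3.65e-07). All 4 tested genes of the metallothionein and zinc response list were called higher, with MT1X, a zinc-binding metallothionein, going from 38.6 ± 4.35 to 118 ± 19.6 CPM in Y220C cells (interaction 1.38, SE 0.16, adjusted p = 2.38e-06). Of 12 KLF factors 4 were called higher and 1 lower, beside 14.4% and 12.4% of all genes tested. In p53-null cells 6 rose and 1 fell, and in Y220C cells 8 rose. KLF2 (interaction 1.21) and KLF6 (interaction 0.80) rose in both lines. KLF10, the 1 member with opposite signs, fell from 54.2 ± 1.36 to 48 ± 1.48 CPM in p53-null cells. It rose from 48.4 ± 1.19 to 74.1 ± 2.83 CPM in Y220C cells (interaction 0.79, SE 0.06, adjusted p = 2.1e-09).

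Cholesterol synthesis and the cell cycle lists, in contrast, moved alike in both lines and differed in size. Of 27 cholesterol genes 25 rose in p53-null and 26 in Y220C cells, while 14 were called higher for the interaction and 3 lower (FDFT1, LSS and TM7SF2, named after their values were seen). Over all genes tested, 14.8% and 24.9% rose, and 14.4% and 12.4% were called higher and lower. FASN, the fatty acid synthase, rose 5.86-fold and 9.59-fold (interaction 0.71, SE 0.05, adjusted p = 3.67e-09). All 48 tested genes of G2/M and mitosis fell in p53-null and 47 in Y220C cells, and 21 were called lower for the interaction against 2 higher (ANLN and CKS2, named after their values were seen). The background shares of genes that fell are 13.3% in p53-null and 23.6% in Y220C cells, and that of lower calls is 12.4%. MKI67, the proliferation antigen Ki-67, fell 1.27-fold and 2.8-fold, with the Y220C libraries widely spread, from 106 to 175 CPM with DMSO and from 42 to 68 CPM with MS78 (interaction -1.14, SE 0.19, adjusted p = 0.000132). Hypoxia and glycolysis genes were called lower in 10 of 27 and higher in 5, beside 12.4% and 14.4% of all genes tested. BNIP3, a mitophagy receptor, stood at 58, 44.8, 87 and 44.5 CPM in Null DMSO and rose 1.77-fold in p53-null cells, and its Y220C response was 1.06-fold and not called (interaction -0.75, SE 0.19, adjusted p = 0.00519).

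**Figure D4:**
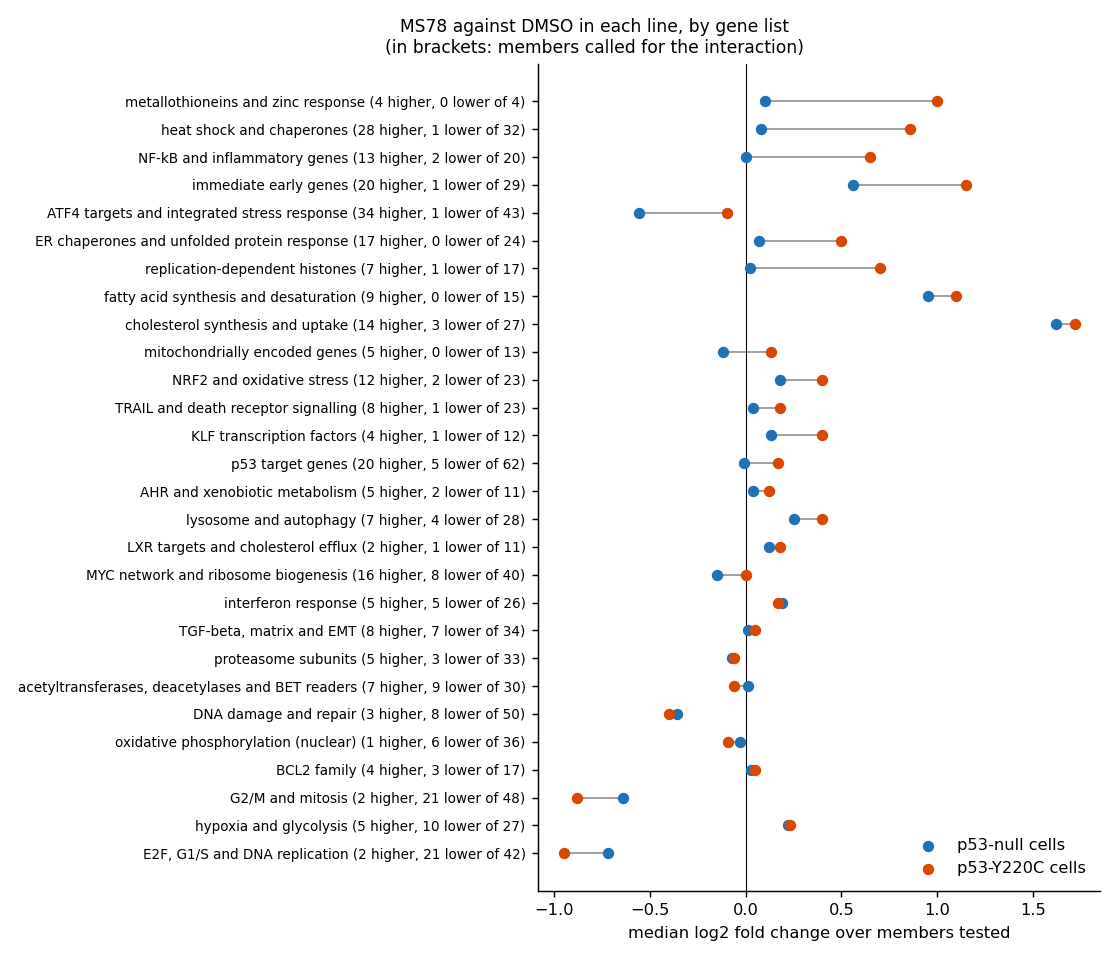
Median log2 fold change of MS78 against DMSO over the tested members of 28 gene lists, in p53-null cells and in Y220C cells, joined by a line and ordered by the median interaction, with the members called for the interaction in brackets. The points lie furthest apart for metallothioneins (4 genes) and chaperones, whereas cholesterol synthesis lies at far right in both lines, with medians of 1.62 and 1.72.

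Promoters were compared for the letters of stress-related motifs, on both strands of the 300 base windows, and a match is a description of the sequence and not a site. Of the 167 opposite genes with a window that rose in Y220C cells, 11 (6.59%) held the CEBP-ATF response element TGATGNAA, against 1.6% of the windows of genes tested and 3.67% of all windows. The cAMP response element TGACGTCA was in 12 of the 167 (7.19%), against 3.23% of genes tested. ATF3 and IFRD1 are shown for these elements, which are in capitals. Both are on the plus strand, at chr1:212565157-212565456 and chr7:112450258-112450557.
ATF3: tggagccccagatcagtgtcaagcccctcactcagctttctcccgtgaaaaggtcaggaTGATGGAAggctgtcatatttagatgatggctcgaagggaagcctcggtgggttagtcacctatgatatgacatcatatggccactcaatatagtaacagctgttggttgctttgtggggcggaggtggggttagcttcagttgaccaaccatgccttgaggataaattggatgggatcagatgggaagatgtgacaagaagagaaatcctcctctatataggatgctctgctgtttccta
IFRD1: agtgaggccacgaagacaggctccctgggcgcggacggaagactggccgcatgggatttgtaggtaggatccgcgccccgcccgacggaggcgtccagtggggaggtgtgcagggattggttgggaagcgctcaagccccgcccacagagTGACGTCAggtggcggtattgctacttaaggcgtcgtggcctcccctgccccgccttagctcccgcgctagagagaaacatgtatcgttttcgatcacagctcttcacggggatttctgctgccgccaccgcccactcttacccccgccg

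The paired heat shock units were in 4 (GAANNTTC) and 3 (TTCNNGAA) of the 24 windows of genes that rose in Y220C cells only. These are 16.7% and 12.5%, against 4.72% and 5.95% of genes tested and 6.87% and 7.84% of all windows. CHORDC1 held both, with 3 matches each that partly overlap, and ZFAND2A held 1. Of the 167 windows, 13 (7.78%) held GAANNTTC and 8 (4.79%) held TTCNNGAA. The ER stress response element was in 14 of 11013 windows of genes tested, that of HSPA5 among them. An interferon-stimulated response element (GAAANNGAAA) was in 3 of the 24 (12.5%), against 2.8% of genes tested. The AP-1 site (TGANTCA) was in 8 of the 167 (4.79%), against 4.42% of genes tested. The p53 half-site was in 10 of the 167 (5.99%), AEN among them, against 5.17% of genes tested. It was in 2 of 99 windows (2.02%) of opposite genes that fell in Y220C cells. None of the 24 windows held it, nor any of the 10 of genes that fell in Y220C cells only. With 24 windows, 1 gene moves a share by 4.17 percentage points.

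Because the libraries with leukocyte reads were split unevenly between DMSO and MS78, the interaction was also computed within each set of 8. Each set held a single DMSO or a single MS78 library per line, so the lone library was assumed to vary like the other groups and fewer calls could be made. Where PTPRC reads were present, 1870 genes were called for the interaction and 105 had opposite directions, and where they were absent 411 and 13. The Y220C-only class held 43 and 35 genes. ATF3 had an interaction of 2.83 with and 3.11 without, ZFAND2A of 2.44 and 2.81, HSPA5 of 1.5 and 1.57, DDIT3 of 1.80 and 1.79, and SLC7A11 of 1.44 and 1.03. Of the 336 opposite genes, 335 and 334 kept opposite signs in the 2 sets, which are parts of the same libraries and no independent check. Fewer named genes kept their class: 14 and 4 of the 24 opposite genes, with ATF3, JUN, AEN, GADD45A, MYC and HERPUD1 among those that left it without PTPRC reads, and 8 and 6 of the 16 Y220C-only genes, ZFAND2A among those that left it there. A fit of all 16 libraries with a term for the PTPRC libraries called 4225 genes for the interaction and 250 as opposite, 230 of the 336 among them. In that fit KBTBD8, LURAP1L and TNFRSF10B left the opposite class, B3GNTL1, C1QTNF12, IFIT2, MT1X and YY2 the Y220C-only class, and SLC7A11 the p53-null-only class. CYBA (adjusted p = 0.161) and NR2F1 (adjusted p = 0.157, interaction -0.57) were among the genes no longer called without PTPRC reads.

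**Figure D5:**
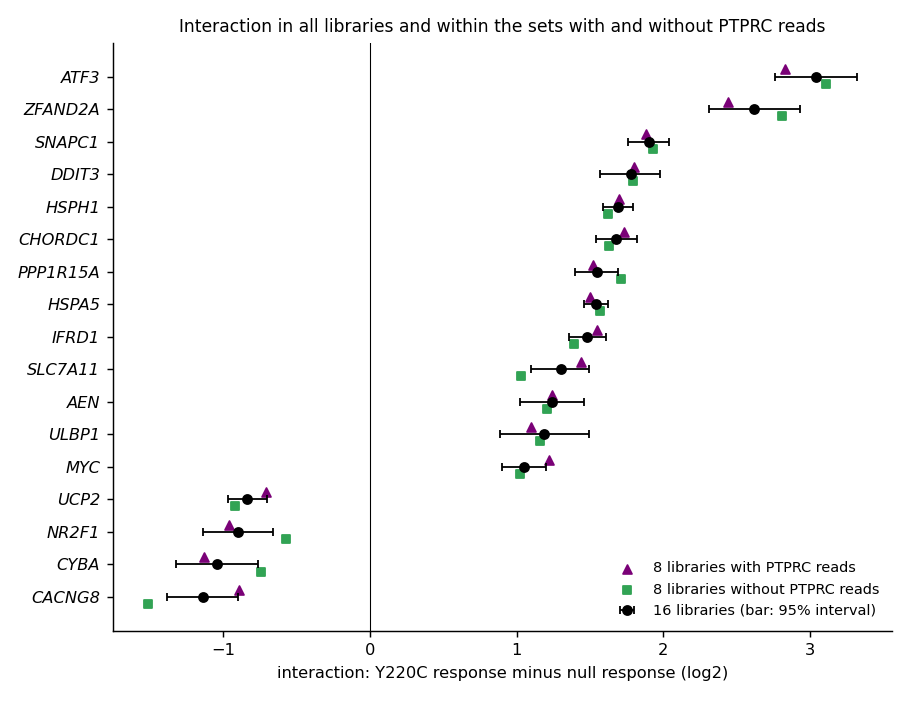
Interaction on the log2 scale for 17 genes in all 16 libraries (black, with 95% interval), in the 8 libraries with PTPRC reads (triangles) and in the 8 without (squares). All 3 values lie on the same side of 0 for each gene, and the largest gaps between the sets are those of CACNG8, with -0.89 and -1.51, and SLC7A11, with 1.44 and 1.03.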

How the data were processed

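RNA-seq libraries of 4 groups with 4 replicates each were used, grouped by their labels. The deposited files give estimated counts and TPM per transcript as Salmon writes them, per the file headers; its version and annotation are not stated in those headers or the labels. The submitters' processing notes name FastQC 0.11.8 and hg38. TPM was used for the length-scaled alternative. Estimated counts of the 97.82% of 197653 transcripts that matched GENCODE 29 (GRCh38) were summed by gene and rounded, and unmatched reads made up 0.278% to 0.325% of a library. Genes were filtered with filterByExpr and scaled by TMM, and edgeR 4.0.16 (R 4.3.3) fitted 1 mean per group to all 16 libraries by its quasi-likelihood test, with Benjamini-Hochberg adjustment over 15687 of 56865 genes. Standard errors are the fold change over the square root of F. Tested on simulated data over 15687 genes, the interaction recovered 73% of 100 changes of 1.5-fold and 97% of 100 changes of 2-fold, with 5 false calls among 175. Only genes with higher read counts were changed, and only in Y220C MS78. All groups otherwise had the same mean per gene, with a spread set by expression level alone. These rates therefore do not carry over to genes with few reads, nor to data with as many changes as these.

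Classes need an adjusted p of 0.05; those of a single line also need a 2-fold change there and a 95% interval within 0.5 (log2) in the other line. Named genes have a mean of at least 1 CPM in a group. They were taken by rank in each class, stopping early, from protein-coding genes whose DMSO and MS78 libraries do not overlap where called, or, with or without overlap, as up to 3 members of a list by interaction. Within the first 3 of a list, rank was not always followed, and some members were passed over for lower-ranked ones. Among those passed over were CRYAB, PTGS2, SLC30A1, ELOVL6, MXD3, KLF2 and KLF6. Besides these choices, CDKN1A, MDM2 and JUN fall outside the rule and were added with their values already known. The members and lists were chosen with earlier results of these data known. The level of the introduced gene, 1 of the 336 opposite genes, and 1 further gene are not reported here. RefSeq promoters matched 42 of the 58 genes described. Alternatives were DESeq2 1.42.0, limma 3.58.1 (limma-trend), RLE and upper-quartile factors, other filters and thresholds, length-scaled TPM counts, a PTPRC term or split, a replicate block, and leaving out each library.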

Additional observations from a re-analysis of the deposited data

Results flagged for a closer look

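The difference between the responses of the lines was tested directly, and 4197 genes passed an adjusted p of 0.05 by edgeR's quasi-likelihood test, 57 of the 58 genes described here among them. The values below are interactions on the log2 scale, Y220C minus p53-null. Among genes with opposite responses the positive interactions were ATF3 3.04, JUN 2.76, KBTBD8 1.82, DDIT3 1.78, FAM24B 1.60, HERPUD1 1.5, IFRD1 1.48 and AEN 1.24. The further positive ones were GADD45A 1.23, LURAP1L 1.09, MYC 1.05, PMAIP1 0.98, HRK 0.85, TAF4B 0.80, KLF10 0.79 and VEGFA 0.75. The smallest of them was TNFRSF10B 0.47. The negative interactions of opposite genes were INSYN2 -1.24, CACNG8 -1.14, CYBA -1.04, NR2F1 -0.90, ISG20 -0.87, UCP2 -0.84 and LRRC24 -0.83. Genes that changed in Y220C cells only had interactions of ZFAND2A 2.62, SNAPC1 1.90, IFIT2 1.76, HSPH1 1.69, NOCT 1.68, CHORDC1 1.68, PGF 1.62 and PPP1R15A 1.55. Others of that class had HSPA5 1.54, C1QTNF12 -1.49, TNFAIP3 1.43, MT1X 1.38, IFIT1 1.29, TESMIN -0.99, B3GNTL1 -0.99 and YY2 -0.98. Genes that changed in p53-null cells only had SLC7A11 1.30 and ULBP1 1.19. Genes that moved the same way in both lines had EGR4 4.92, FOS 4.20, FOSB 4.10, HSPA1A 3.17, MKI67 -1.14, NME1 -1.11, CDKN1A 1.01 and STC2 0.85. Others with one direction had MEF2C -0.79, MMP1 -0.72, FASN 0.71 and SLC6A9 0.71. Genes called in a single line and outside the classes had HSPA6 6.06, BMF -0.88 and BNIP3 -0.75.

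A single library stood apart from the other 3 of its group in 15 of the 232 groups of 4 values examined, by Dixon's criterion at its 95% level, and chance alone gives about 1 in 20 such groups. These were CYBA in Null DMSO 4 (151 CPM), TNFAIP3 in Y220C DMSO 1 (8.7 CPM), HSPH1 in Y220C DMSO 2 (231 CPM), CDKN1A in Y220C MS78 3 (115 CPM) and HRK in Y220C MS78 2 (12.1 CPM). The criterion was also met by EGR4 in Null DMSO 3 (0.172 CPM), PMAIP1 in Y220C DMSO 4 (21.2 CPM), CACNG8 in Null DMSO 4 (14.6 CPM), NOCT in Y220C MS78 2 (16.5 CPM) and LURAP1L in Null DMSO 2 (2.29 CPM). The other 5 were FASN in Y220C DMSO 1 (712 CPM), HSPA6 in Null DMSO 1 (0.257 CPM), MT1X in Null MS78 1 (45.1 CPM), SLC6A9 in Y220C DMSO 3 (13.1 CPM) and FAM24B in Null MS78 1 (1.09 CPM).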

How the results depend on the processing

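The 4 counts of genes (called for the interaction, opposite, Y220C only, p53-null only) were recomputed under each alternative. With length-scaled TPM counts, 2751 genes were called and 172 were opposite. At an adjusted p of 0.01 they were 2585 and 148. Within the libraries with PTPRC reads they were 1870 and 105, and within those without them 411 and 13, with higher shares of 63.4% and 73.0%; the cause was not tested, though both sets hold 8 libraries in place of 16. The Y220C-only class held 19 genes with the interval within 0.3 and 343 with a 1.5-fold rule. The p53-null-only class held 1 gene with DESeq2, RLE size factors, upper-quartile size factors, limma-trend, a term for the PTPRC libraries, or the interval within 0.3, 4 in the libraries without PTPRC reads and 34 with a 1.5-fold rule. SLC7A11 left that class under DESeq2, RLE size factors, limma-trend, no filter and the PTPRC term, and ULBP1 under upper-quartile size factors; both left it in the libraries with PTPRC reads and SLC7A11 in those without. Leaving out 1 library gave 3685 to 4250 called, 254 to 337 opposite, 44 to 60 Y220C only and 1 to 3 p53-null only. SLC7A11 was lost without Null MS78 1 or 2, Y220C DMSO 3 or 4, or Y220C MS78 1, and ULBP1 without Y220C DMSO 2.

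The 58 genes described were followed through the alternatives, many of which leave out only 1 of the 16 libraries. All of these genes except MDM2 were called in the main fit, and the alternatives use the same libraries. The counts are therefore no independent check. Of 1624 interactions of single genes, 1593 kept their direction and side of the threshold. Another 30 kept the direction and lost the call, 23 of these within a set of 8 libraries, and 1 turned. C1QTNF12 turned to 0.0863 as a difference of CPM differences, and it lost its call with limma-trend (adjusted p = 0.0597), without Y220C DMSO 3 (adjusted p = 0.0818) and without Y220C MS78 1 (adjusted p = 0.0502). With length-scaled TPM counts KBTBD8 (adjusted p = 0.208), ISG20 (adjusted p = 0.106), C1QTNF12 (adjusted p = 0.0882) and SLC6A9 (adjusted p = 0.135) lost theirs. Classes kept fewer of their named genes. Length-scaled TPM kept 19 of 24 named opposite genes (not INSYN2, ISG20, KBTBD8, LURAP1L and TNFRSF10B) and 12 of 16 Y220C-only genes (not C1QTNF12, IFIT2, MT1X and TESMIN).

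With the replicate number as a block, 4060 genes were called, 316 were opposite, 53 changed in Y220C cells only and 2 in p53-null cells only. Deviations of the 24 same-numbered pairs correlated between -0.5 and 0.53, 7 of them over 0.1, and 5 of the 24 had the best correlation for their own number. All 7 were among the 8 pairs that share a treatment across the lines (-0.06 to 0.53), while the 16 pairs between DMSO and MS78 lay between -0.5 and 0.01. The largest values, 0.45 and 0.53, and the most negative, -0.46 to -0.5, all belonged to replicate 1. In each of the 4 groups, replicate 1 was also the library that differed from the others in PTPRC reads. The other pairs that share a treatment lay between -0.06 and 0.2. Same-numbered libraries thus went together across the lines mainly for replicate 1, only weakly for the other numbers, and not between treatments. The part of the leukocyte reads in this was not tested. The block joined both treatments under each number, and a block of number within treatment was not tried. The main fit did not pair samples by number. C1QTNF12 left the Y220C-only class under the block.

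Depth limited the lowest genes: EGR4, HSPA6 and C1QTNF12 had groups of fewer than 20 reads per library.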
